A study of Homo sapiens with 9 samples.

Results

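Voltage-gated and potassium channel genes were followed over the 9 arrays of a series on embryoid bodies of NCCIT, a human embryonal carcinoma line. Genes were taken by symbol (KCN followed by letters and a digit, SCN followed by a digit and A or B, and CACN followed by a letter), and 124 genes of 18417 with a transcript cluster of their own matched. Of these, 48 had a value above 7.71, the median of all values in the table, on at least 1 array, and these 48 are described here; 12254 genes of the series passed the same threshold. The threshold kept 38.7% of the matched channel genes and 66.5% of all genes. The rule therefore used each gene's highest level, and a gene dim on most arrays entered only through the arrays where it was brighter.

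One array came from undifferentiated NCCIT cells and 8 from embryoid bodies, the floating aggregates in which these cells begin to differentiate. At day 7 and again at day 21 there was 1 array without addition, 1 with 50 mM ethanol, 1 with an additive that the labels call FA, and 1 with both. All arrays share the same established line, the labels do not say whether they came from separate cultures, and the written treatment protocol describes 7 days only. No condition was replicated, so p-values measure the spread between these arrays after an additive fit, which may be technical. Values are log2 expression values, and a difference of 1 is a doubling. Values of different clusters depend on their probes and were not compared as amounts.

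Potassium channels let potassium leave or enter the cell and hold the resting potential, sodium channels start action potentials, and voltage-gated calcium channels turn depolarisation into calcium entry. Pore subunits carry the current, and accessory subunits change its size, timing and delivery to the membrane. Many of these genes are best known in neurons and in heart and skeletal muscle, but stem and tumour cells also use potassium channels to set membrane potential and volume.

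The matched genes fell into the known families, and the share that passed differed between them. Of 35 voltage-gated potassium pore genes 13 passed, of 15 two-pore-domain (leak) channel genes 8, of 13 inward rectifier genes 3 and of 6 calcium- or sodium-activated potassium channel genes 1. Of 16 potassium channel accessory genes 6 passed. Of 9 sodium channel pore genes 2 passed, SCN8A and SCN4A, and of 3 sodium channel beta genes 1, SCN4B. Of 10 calcium channel pore genes 3 passed, CACNA1B, CACNA1H and CACNA1I, and of 15 calcium channel accessory genes 10. The last 2 matches were KCNQ1DN, which passed, and the antisense transcript KCNJ5-AS1, which did not; neither is a channel subunit. Well-known neuronal and cardiac pore genes such as SCN1A, SCN2A, SCN3A, CACNA1A, CACNA1C, KCNQ3 and KCNMA1 were among the 76 that stayed at or below the threshold on all 9 arrays. Just inside the threshold were KCNA1 (highest value 7.72), CACNA2D4 (7.73) and SCN4B (7.79), and just outside were KCNIP3 (7.67), CACNG5 (7.62) and KCNH6 (7.60). Of the 48 genes, 24 lay above the threshold on all 9 arrays and 3 on 1 array only, the ethanol-only array of day 7.

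Promoter sequence is shown for the 3 genes that fell most between day 7 and day 21, KCNG3, KCNK1 and SCN8A, and for both annotated starts of KCNIP1, which rose. Each line gives the 250 bases before the start in RefSeq (build GRCh38.p14), read 5′ to 3′ on the gene's strand, with every GC box (GGGCGG on either strand, overlapping matches included) in capitals. The windows are chr2:42493983-42494232 on the minus strand, chr1:233613856-233614105 on the plus strand, chr12:51590983-51591232 on the plus strand, and chr5:170353237-170353486 and chr5:170503770-170504019 on the plus strand.
KCNG3: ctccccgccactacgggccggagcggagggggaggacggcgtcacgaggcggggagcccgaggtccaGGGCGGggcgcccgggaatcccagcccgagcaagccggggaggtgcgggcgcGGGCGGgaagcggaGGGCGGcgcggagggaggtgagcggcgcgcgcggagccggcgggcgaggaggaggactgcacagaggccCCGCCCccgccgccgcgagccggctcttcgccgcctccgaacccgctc
KCNK1: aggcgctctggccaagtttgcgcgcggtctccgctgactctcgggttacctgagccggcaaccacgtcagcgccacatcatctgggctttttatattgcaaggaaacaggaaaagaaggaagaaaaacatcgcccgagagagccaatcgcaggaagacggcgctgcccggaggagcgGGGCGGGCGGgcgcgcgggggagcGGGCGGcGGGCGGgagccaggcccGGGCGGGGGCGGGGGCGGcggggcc
SCN8A: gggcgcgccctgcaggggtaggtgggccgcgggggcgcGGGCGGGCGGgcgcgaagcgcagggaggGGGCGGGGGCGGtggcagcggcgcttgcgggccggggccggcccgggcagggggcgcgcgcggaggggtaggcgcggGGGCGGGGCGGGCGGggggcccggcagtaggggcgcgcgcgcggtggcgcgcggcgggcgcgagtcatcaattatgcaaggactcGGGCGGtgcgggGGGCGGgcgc
KCNIP1 start 1: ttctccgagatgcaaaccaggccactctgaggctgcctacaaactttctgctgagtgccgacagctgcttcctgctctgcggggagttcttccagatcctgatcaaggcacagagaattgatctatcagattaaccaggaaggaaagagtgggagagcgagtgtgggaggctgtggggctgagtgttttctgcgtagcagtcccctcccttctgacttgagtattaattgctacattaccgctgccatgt
KCNIP1 start 2: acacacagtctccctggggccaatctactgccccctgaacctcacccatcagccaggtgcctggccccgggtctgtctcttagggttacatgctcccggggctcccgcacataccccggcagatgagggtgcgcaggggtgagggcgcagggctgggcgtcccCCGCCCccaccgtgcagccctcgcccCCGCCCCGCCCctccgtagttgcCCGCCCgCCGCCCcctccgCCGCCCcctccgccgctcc
The 3 promoters of falling genes held 4 (KCNG3), 7 (KCNK1) and 9 (SCN8A) GC boxes and 40, 30 and 45 CG pairs. The first KCNIP1 start held 0 GC boxes and 6 CG pairs, and the second start 6 GC boxes and 20 CG pairs. KCNIP4 had 3 annotated starts with 4, 0 and 0 GC boxes, and KCNJ8 had 1 start with 4. Promoter windows were available for 35 of the 48 genes, with 57 starts in all. A GC box was present in 56.1% of these windows and in 42.6% of all 35116 windows of this length. A TATA box (TATAAA on either strand) was present in 5.26% and 10.7%, and the CCAAT box (CCAAT on either strand) in 24.6% and 32.0%. The windows of channel genes were also richer in G and C, with a median of 68.8% and 19 CG pairs against 58% and 11 over all windows. These matches describe letters only, and the array values do not say which start was used.

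Between day 7 and day 21 KCNIP4 and KCNIP1, which code for calcium-binding accessory proteins of Kv4 potassium channels, rose by a log2 difference of 1.98 ± 0.10 and 1.40 ± 0.09 (SE of the fit, mean of 4 pairs). KCNJ8, the pore of an ATP-sensitive potassium channel, rose by 0.47 ± 0.08. KCNG3, a silent Kv subunit that modifies Kv2 channels, changed by -1.22 ± 0.10, KCNK1, a two-pore leak channel, by -0.98 ± 0.05 and SCN8A, the pore of a neuronal sodium channel, by -0.90 ± 0.07. In limma with Benjamini-Hochberg adjustment over the 12254 genes tested, 3 of the 48 genes rose, 19 fell and 26 did not pass. Over all genes tested 26.3% were called higher and 22.6% lower, or 48.9% in either direction, beside 6.25%, 39.6% and 45.8% of the channel genes. The median day difference was -0.16 for the channel genes and -0.01 for all genes tested. Among the genes called, KCNIP4 and KCNIP1 were above the brightness threshold on day 21 arrays alone, and CACNG7 and CACNA2D4 on day 7 arrays alone. These 4 genes entered through the day on which they were higher, so a higher top value on that day was fixed in advance. CACNG4 (day 21 alone) and KCNA1, KCNH4 and SCN4B (day 7 alone) entered in the same way and were not called. The counts of genes called describe the 48 genes and support nothing further. In the fit of all 18417 genes with no threshold KCNIP4, KCNIP1 and CACNG7 were also called, and CACNA2D4 was not. Array medians ran from 7.727 to 7.765 at day 7 and from 7.672 to 7.701 at day 21. With each array centred on its own median the split was 6 higher and 14 lower, with CACNA2D3, CACNG4 and KCNMB3 added to those higher. The number of calls was 14 without the untreated day 7 array, 14 without the FA array of day 7, 14 without the untreated day 21 array, and 34 when the array that had both additions at day 7 was left out. In each of the 9 fits that left out 1 array, 13 of the 22 genes passed: KCNIP4, KCNIP1, KCNJ8, KCNG3, KCNK1, SCN8A, CACNA2D2, CACNA1B, KCNK6, KCNMB4, KCNK12, KCND1 and KCNA6. In whole cultures fewer cells of a type and less RNA per cell cannot be told apart.

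**Figure D1:**
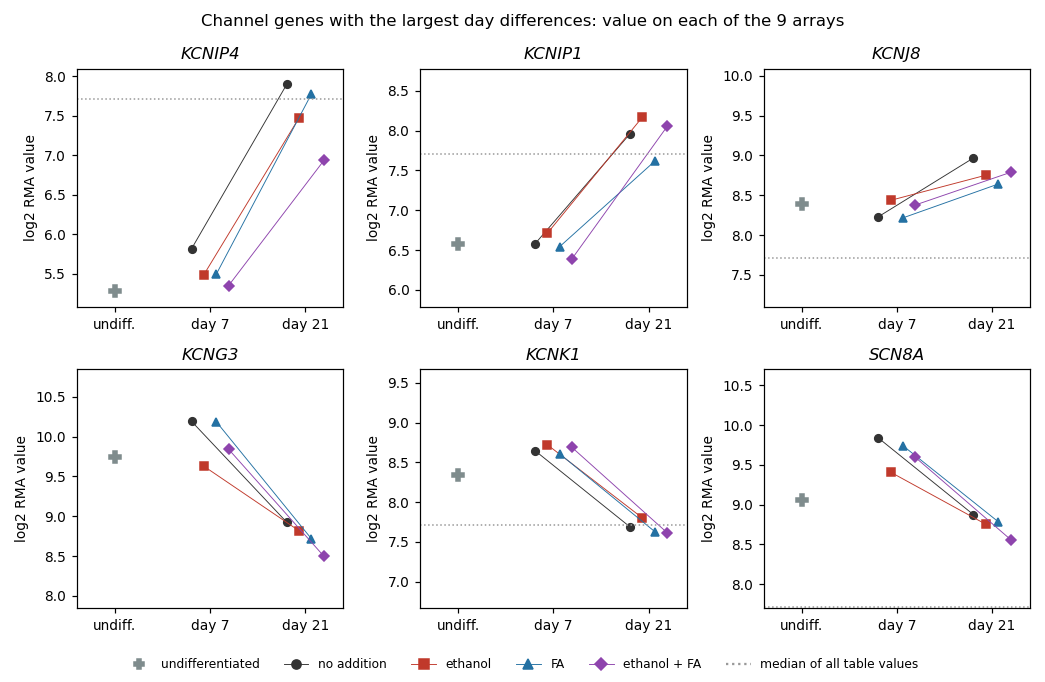
Log2 RMA value of 6 channel genes on each of the 9 arrays, by stage on the horizontal axis, with symbols for the treatment and lines joining the same treatment at day 7 and day 21; the dotted line is the median of all table values. KCNIP4 rose from between 5.35 and 5.81 at day 7 to between 6.93 and 7.90 at day 21, while KCNG3, KCNK1 and SCN8A were lower on every day 21 array than on every day 7 array.

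KCNIP4 was at 5.28 on the undifferentiated array. At day 7 it was at 5.81 without addition, 5.49 with ethanol, 5.49 with FA and 5.35 with both, and at day 21 at 7.90, 7.47, 7.77 and 6.93 in the same order. All 4 day 21 values lay above all day 7 values, and the array with both additions was the lowest on each day. The rise was 3.95-fold (limma adjusted p = 2.99e-06, higher in 4 of 4 pairs). KCNIP1 was at 6.58 on the undifferentiated array, at 6.58, 6.71, 6.54 and 6.39 at day 7 and at 7.96, 8.17, 7.62 and 8.06 at day 21, in the order no addition, ethanol, FA and both. Its day 7 values lay around the undifferentiated value, and its day 21 values were 2.63-fold higher (limma adjusted p = 7.99e-06, 4 of 4 pairs). Both genes passed the brightness threshold on day 21 arrays alone, so a higher top value at day 21 was fixed in advance.

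KCNJ8, whose product pairs with sulphonylurea receptors, was above the threshold on all 9 arrays. It was at 8.40 on the undifferentiated array, at 8.23, 8.44, 8.22 and 8.38 at day 7 and at 8.97, 8.75, 8.64 and 8.79 at day 21. The days did not overlap, and the rise was 1.39-fold (limma adjusted p = 0.00146).

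KCNG3 cannot form a channel on its own and acts by joining Kv2 subunits. Its undifferentiated value was 9.74. Day 7 values were 10.2 without addition, 9.63 with ethanol, 10.2 with FA and 9.84 with both, and day 21 values were 8.93, 8.82, 8.72 and 8.50. Both ethanol arrays of day 7 were below both arrays without ethanol, and every day 21 value was below the undifferentiated one. The day difference was 2.34-fold downward (limma adjusted p = 3.54e-05, lower in 4 of 4 pairs).

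KCNK1, which carries a background potassium leak, was at 8.34 on the undifferentiated array. It was at 8.65, 8.72, 8.61 and 8.69 at day 7 and at 7.69, 7.80, 7.63 and 7.62 at day 21. The 4 arrays of a day lay close together (SD 0.05 and 0.08), and the fall was 1.98-fold (limma adjusted p = 2.52e-06). SCN8A codes for Nav1.6, the sodium channel dense at the axon initial segment and nodes of Ranvier. It was at 9.05 on the undifferentiated array, at 9.84, 9.41, 9.74 and 9.59 at day 7 and at 8.87, 8.75, 8.79 and 8.56 at day 21. The undifferentiated value lay between the 2 days, and the fall from day 7 to day 21 was 1.87-fold (limma adjusted p = 2.72e-05). A second SCN8A cluster differed by -0.76 between the days, against -0.90 for the one used.

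**Figure D2:**
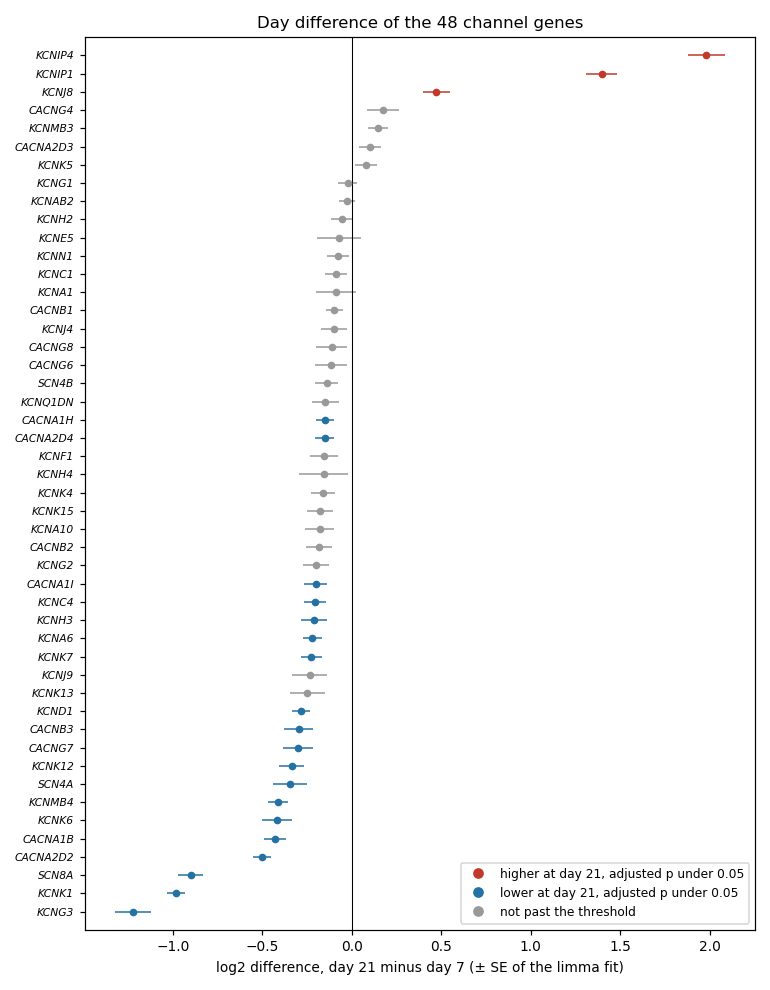
Log2 difference between day 21 and day 7 for each of the 48 channel genes, averaged over the 4 matched pairs, with the SE of the limma fit as bars and colour for the call. KCNIP4, KCNIP1 and KCNJ8 are the 3 genes called higher, and 19 genes from CACNA1H at -0.15 to KCNG3 at -1.22 are called lower.

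The other falls were smaller, and only 3 of the 19 genes called lower changed at least 1.5-fold, KCNG3, KCNK1 and SCN8A. The median of the 19 was -0.30, and 18 of them had the same sign in all 4 pairs; CACNG7 had equal values in the pair with both additions. Among calcium channel genes CACNA2D2, which codes for a subunit that carries pores to the membrane, changed by -0.50 ± 0.05 and CACNA1B, the N-type pore of presynaptic terminals, by -0.43 ± 0.06. CACNA2D2 was at 9.21 on the undifferentiated array, between 8.86 and 9.07 at day 7 and between 8.41 and 8.56 at day 21. Further calls were the T-type pore genes CACNA1I (-0.20) and CACNA1H (-0.15) and the accessory genes CACNG7 (-0.30), CACNB3 (-0.30) and CACNA2D4 (-0.15). In all, 3 of 3 calcium pore genes and 4 of 10 accessory genes were called lower, beside 22.6% of all genes tested. Of these accessory genes CACNG7 and CACNA2D4 had passed the brightness threshold at day 7 only. With each array's median set to a common value, CACNA1B was the only pore gene called, and CACNA2D4 was not called either. CACNA1H and CACNA1I also did not pass when any 1 of the embryoid body arrays was left out, except the day 7 array with both additions. CACNB3 and CACNG7 did not pass without the untreated array of either day or the FA-only array of either day.

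Among two-pore-domain leak channels 4 of 8 fell, KCNK1, KCNK6 (-0.42 ± 0.08), KCNK12 (-0.34) and KCNK7 (-0.23), and none rose, where 22.6% of all genes tested were lower and 26.3% higher. KCNK7 did not pass when the untreated array of day 21 or the FA-only one of day 7 was left out. KCNK13, KCNK15, KCNK4 and KCNK5 did not pass, with values from -0.25 to 0.08. Of 13 voltage-gated potassium pore genes 5 fell, against the same 22.6%. They were KCNG3, the Kv4 gene KCND1 (-0.28), the Kv1 gene KCNA6 (-0.22), KCNH3 (-0.21) of the ether-a-go-go group and KCNC4 (-0.21), which codes for a fast-gating Kv3 channel. KCNH3 and KCNC4 were not called with centred arrays, nor without the untreated array of either day. The other 8 lay between -0.20 (KCNG2) and -0.02 (KCNG1), none of them past the threshold. SCN4A, the sodium channel of skeletal muscle, changed by -0.35 ± 0.10 (limma adjusted p = 0.0176). It no longer passed without the untreated day 7 array (adjusted p = 0.0574) or the untreated day 21 array (adjusted p = 0.0517).

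Of 6 potassium channel accessory genes, KCNIP4 and KCNIP1 rose and KCNMB4 fell by 0.41 ± 0.06. KCNMB4 codes for the brain-type beta subunit of the large-conductance calcium-activated potassium channel. Its values were 10.8 on the undifferentiated array, between 10.9 and 11.2 at day 7 and between 10.6 and 10.7 at day 21, and the days did not overlap. KCNMB3, another beta subunit of that channel, differed by 0.15 ± 0.06 and did not pass; its 3 other clusters differed by 0.09, -0.05 and 0.14. KCNAB2 (-0.03) and KCNE5 (-0.07), accessory to Kv1 and KCNQ channels, did not pass. Neither did the inward rectifiers KCNJ9 (-0.24) and KCNJ4 (-0.10), the small-conductance channel KCNN1 (-0.08) or SCN4B (-0.14). On 4 arrays against 4, 20 of the 48 channel genes were lower at day 21 without overlap and 3 were higher, beside 21.4% and 24.6% of all genes tested. Of the 3, KCNIP4 and KCNIP1 had entered through day 21 alone, and of the 20, CACNA2D4 through day 7 alone. The brightness rule therefore fixed part of these counts, and they support nothing further.

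**Figure D3:**
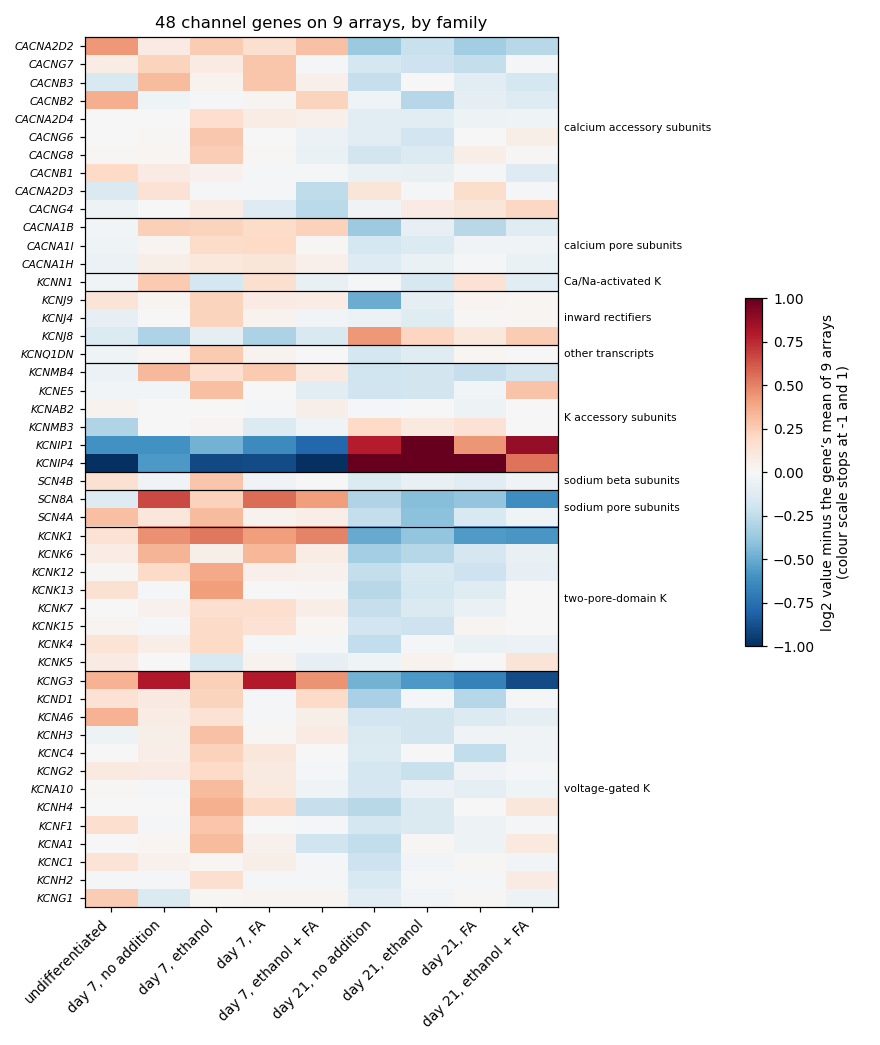
Value of each of the 48 channel genes on each of the 9 arrays minus that gene's mean over the arrays (log2 units, colour scale from -1 to 1), with genes grouped by family and ordered within a family by day difference. KCNIP1 and KCNIP4 stand out as higher at day 21, and KCNG3, KCNK1 and SCN8A as lower. The ethanol-only array of day 7 holds the highest value of 24 of the 48 genes, of which 3 passed the threshold there alone.

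Kv4 channels, which carry the fast A-type potassium current, are built from KCND pore subunits with KCNIP proteins and the dipeptidyl-peptidase-like proteins DPP6 and DPP10. The genes of this complex were set side by side after their values were seen. KCND1 fell by 0.28 ± 0.05 (limma adjusted p = 0.00280), from between 7.90 and 8.14 at day 7 to between 7.58 and 7.90 at day 21. KCND2 stayed below the brightness threshold on every array (highest value 6.52). In a fit of all 18417 genes with no threshold it changed by -0.73 ± 0.07 (limma adjusted p = 8.35e-05). KCND3, also below the threshold, lay between 6.44 and 6.75 on all 9 arrays. KCNIP2 stayed below the threshold too and was higher at day 21 by 0.27 ± 0.07 in that fit (limma adjusted p = 0.0145). DPP10 rose by 0.82 ± 0.14 (limma adjusted p = 0.00189), from between 7.70 and 8.06 to between 8.29 and 9.06. DPP6 changed by -0.94 ± 0.08 (limma adjusted p = 5.06e-05), from between 8.57 and 9.10 to between 7.65 and 8.16. Pore genes of this complex that passed were thus lower at day 21, while its accessory genes moved in both directions.

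**Figure D4:**
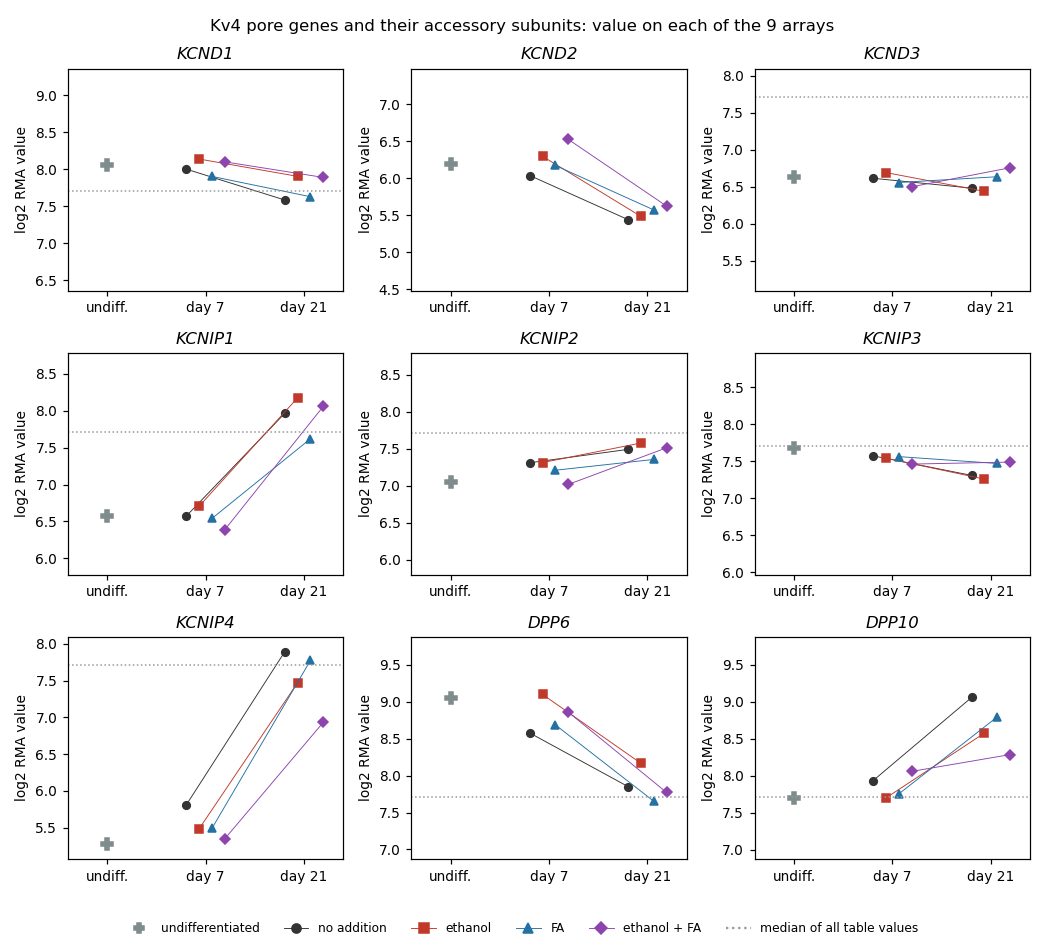
Log2 RMA value on each of the 9 arrays for the Kv4 pore genes KCND1 to KCND3 and the accessory genes of the KCNIP and DPP families, by stage, with symbols for the treatment and the median of all table values dotted. KCNIP1, KCNIP4 and DPP10 are higher on all day 21 arrays than on all day 7 arrays, and DPP6 and KCND2 are lower.

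Relative to the undifferentiated array, fewer channel genes passed. The planned comparison used the untreated embryoid body level of the fit averaged over both days. KCNIP4 rose by 1.61 ± 0.17 (limma adjusted p = 0.00104), KCNIP1 by 0.70 ± 0.14 (limma adjusted p = 0.00997) and KCNMB3 by 0.40 ± 0.09 (limma adjusted p = 0.0168). CACNA2D2 changed by -0.56 ± 0.08, CACNB2, a calcium channel beta subunit of heart and brain, by -0.46 ± 0.12, KCNA6 by -0.41 ± 0.09 and KCNG1, a silent Kv subunit, by -0.34 ± 0.09. Limma's adjusted p for these 4 lay between 0.00238 and 0.0253. In all, 3 of 48 rose and 4 fell, or 14.6%, beside 28.1% of all genes tested (11.0% higher and 17.2% lower). The median was -0.04 for the channel genes and -0.05 for all genes tested. Each of these values rests on 1 undifferentiated array. KCNIP4 and KCNIP1 passed the brightness threshold at day 21 only, so they had to exceed the undifferentiated value on at least 1 array of that day. The count of genes that rose includes both and supports nothing further. For KCNIP1 the untreated array differed from the undifferentiated one by 0.0008 at day 7 and by 1.39 at day 21. When the ethanol-only array of day 7 was left out, 14 channel genes passed. CACNB2 and KCNG1 did not pass without the untreated array of day 7 (adjusted p = 0.0862 and 0.0879) or the FA array of day 7 (adjusted p = 0.0504 and 0.0511). KCNG1 and KCNMB3 did not pass without the untreated array of day 21 (adjusted p = 0.0666 and 0.0537).

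The average over both days joined opposite moves, so each day was also set against the undifferentiated array in the same fit, a choice made after the values were seen. SCN8A was higher at day 7 by 0.73 ± 0.12 (limma adjusted p = 0.00803), with all 4 day 7 arrays above the undifferentiated one. KCNK1 (0.34 ± 0.09), KCNMB4 (0.33 ± 0.10) and KCNIP4 (0.62 ± 0.18) were also called higher, and CACNA2D2 (-0.31 ± 0.08) and KCNG1 (-0.33 ± 0.09) lower, with limma adjusted p between 0.0288 and 0.0484. These 6 calls were 12.5% of the channel genes, beside 20.6% of all genes tested (6.68% higher and 13.9% lower). The day 7 arrays of KCNIP4 lay 0.54 (no addition), 0.21 (ethanol), 0.22 (FA) and 0.07 (both) above the undifferentiated one, all less than the fitted 0.62. The fitted value is for no addition and takes its ethanol and FA terms from both days. All these KCNIP4 levels were below the brightness threshold, which the gene passed at day 21 only. Centring the arrays on their medians changed the split to 1 higher (SCN8A) and 4 lower. None of the 6 passed without the untreated day 7 array, where SCN8A was at 0.68 (adjusted p = 0.0519). Only SCN8A passed without the FA array of day 7. The number called was 2 without any one of the 4 day 21 arrays and 10 without the ethanol-only array of day 7.

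At day 21 the same comparison called 5 channel genes higher and 8 lower, 27.1% beside 37.8% of all genes tested (16.6% higher and 21.2% lower). KCNIP4 (2.60 ± 0.18) and KCNIP1 (1.40 ± 0.15) were followed by KCNMB3 (0.47 ± 0.10), KCNJ8 (0.40 ± 0.13) and CACNA2D3 (0.34 ± 0.11). KCNIP4 and KCNIP1 entered through day 21 only, so values above the undifferentiated array were built into their choice. CACNA2D2 (-0.81 ± 0.08), KCNG3 (-0.81 ± 0.17), KCNK1 (-0.65 ± 0.09), SCN4A (-0.55 ± 0.16), CACNB2 (-0.55 ± 0.13), KCNA6 (-0.52 ± 0.09), KCND1 (-0.41 ± 0.09) and KCNG1 (-0.35 ± 0.09) were lower. KCNJ8 was at 0.23 (adjusted p = 0.136) without the untreated day 21 array, and did not pass without either FA-only array or the day 21 array with both additions (adjusted p between 0.0543 and 0.0806), with centred arrays (adjusted p = 0.0689) or with no filter on dim genes (adjusted p = 0.0631). CACNA2D3 did not pass without the untreated or the FA array of day 7, nor without any of the 3 treated arrays of day 21 (adjusted p between 0.0509 and 0.0783), nor with an intensity trend in the variance prior (adjusted p = 0.0552). SCN4A did not pass without the untreated array of day 7 (adjusted p = 0.0607) or of day 21 (adjusted p = 0.0908), nor KCNG1 without the latter (adjusted p = 0.0677). KCNK1 was thus called higher at day 7 and lower at day 21, while SCN8A and KCNMB4 were called at day 7 only. In 6 genes, SCN8A, KCNK1, KCNMB4, CACNA1B, KCNK12 and KCNK7, the undifferentiated value lay below all day 7 values and above all day 21 values, 12.5% beside 3.95% of all genes tested. The comparisons with the undifferentiated array share that array, and their values are given side by side only.

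With ethanol 0 of the 48 channel genes passed in limma after adjustment over 12254 genes, where 0.685% of all genes tested were called (0.563% higher and 0.122% lower). At an unadjusted p under 0.05 there were 7 channel genes, or KCNIP4, KCNG3, KCNN1, SCN8A, CACNA2D3, CACNA2D2 and KCND1, beside 17.5% of all genes tested. The lowest adjusted p was 0.0975, for KCNN1, a small-conductance calcium-activated potassium channel. It was at 8.45, 8.35, 8.18 and 8.34 on the arrays without ethanol and at 8.02, 8.12, 8.03 and 8.09 on their matched ethanol arrays, in the order day 7, day 7 with FA, day 21 and day 21 with FA. The 4 ethanol arrays all lay below the 4 arrays without ethanol, and the difference was -0.27 ± 0.06. KCNN1 was the only channel gene without overlap between these groups, in which 1.49% of all genes tested were lower and 2.59% higher. KCND1 was higher by 0.23 ± 0.05 (limma adjusted p = 0.100), with pair differences of 0.14, 0.20, 0.32 and 0.26. KCNIP4 differed by -0.43 ± 0.10 (limma adjusted p = 0.105), and its pair differences ran from -0.14 at day 7 with FA to -0.84 at day 21 with FA. KCNG3 differed by -0.31 ± 0.10, most at day 7 without FA (-0.57), and by -0.20 without the ethanol-only array of day 7. KCNK13 differed by 0.17 ± 0.10, but by 0.06 without that array, and by 0.25 without the day 7 array with both additions. CACNA2D2 differed by 0.13 ± 0.05, with the same sign in 4 of 4 pairs.

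**Figure D5:**
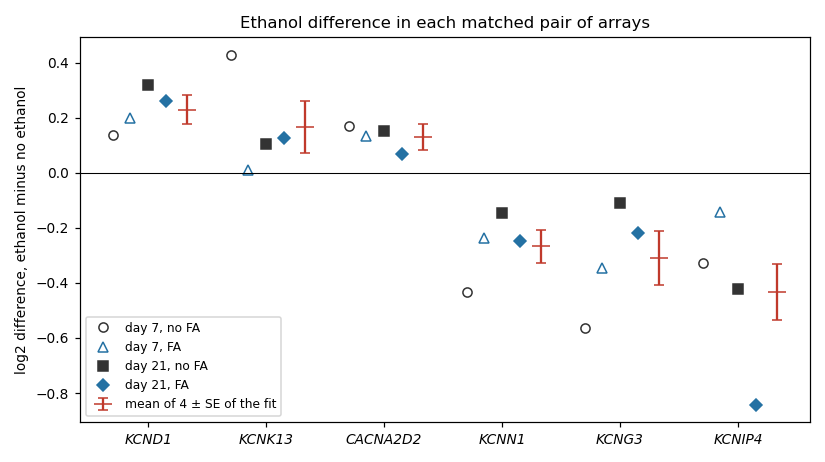
Log2 difference between ethanol and no ethanol in each of the 4 matched pairs of arrays for 6 channel genes, with the mean of the 4 and the SE of the limma fit in red. The 6 genes were picked for having 1 sign in all 4 pairs, as 10 of the 48 genes did, and none of the 6 means passed after adjustment over all genes tested.

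The day 7 ethanol difference without FA is taken from the ethanol-only array of that day, so it moves with that array by construction. The ethanol-only array of day 7 held the highest value of 24 of the 48 channel genes, 50.0% beside 15.3% of all genes tested. Those 24 genes had means over the arrays between 7.40 and 8.65. KCNA1, CACNA2D4 and SCN4B among them passed the brightness threshold on this array alone, so the rule fixed that they were highest there. The untreated day 21 array held the lowest value of 24 channel genes, 50.0% beside 19.0%. In the day 7 pair without FA 34 channel genes were above 0 with a median of 0.14, and in the day 7 pair with FA 13 were above 0 with a median of -0.07. At day 21 the medians were 0.05 without FA and 0.03 with FA. The ethanol-only array of day 7 had the highest median of all arrays, 7.765. The untreated day 21 array had the lowest among embryoid bodies, 7.672. Mean correlation with the other arrays of day 7 was 0.990 for the ethanol-only array and 0.994 to 0.995 for the others. Leaving out the ethanol-only array of day 7 left 18 of the 22 day calls and 0 ethanol calls. Centring each array on its median left 17 of the 22 and 0. The part of the ethanol-only array in the results was not tested further.

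With FA 0 of the 48 channel genes passed in limma, as did 0.00% of all genes tested, and 2 had an unadjusted p under 0.05 (0.987% of all genes tested). Those were KCNIP4, at -0.28 ± 0.10, and KCNIP1, at -0.20 ± 0.09, each lower with FA in 4 of 4 pairs. The KCNIP4 difference was -0.54 in the day 21 pair with ethanol and between -0.32 and -0.12 in the others. It was -0.17 without the day 21 array with both additions, and KCNIP1 was at -0.13 without the FA array of day 21 and at -0.13 without the day 7 array with both. KCNMB3 (-0.09 ± 0.06) and KCNK5 (0.06 ± 0.06), a leak channel active at alkaline pH, also kept 1 sign in 4 of 4 pairs.

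No interaction passed for a channel gene in limma. At an unadjusted p under 0.05 there were 6 for ethanol by day (7.48% of all genes tested), 0 for ethanol by FA (0.816%) and 11 for FA by day (12.2%), and the lowest adjusted p values were 0.548, 0.994 and 0.403. Chosen after their values were seen, examples of the first group were KCNK6 (0.35 ± 0.12), with ethanol differences of -0.29 and -0.26 at day 7 and 0.05 and 0.09 at day 21, and CACNB3 (0.34 ± 0.12). Examples of the last group, chosen in the same way, were KCNE5 (0.52 ± 0.17) and CACNG4 (0.38 ± 0.12). Over all genes tested 1 interaction of ethanol with day passed (0.00816%). Ethanol by day passed for KCNA1 and KCNH4 without the ethanol-only array of day 7, and for KCNG3 without the day 7 array with both additions. KCNA1 had passed the brightness threshold only on the array left out there, and lay below it on all the others.

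Partner genes that anchor, modify or balance channels were set beside them. Of 58 listed genes 46 had a cluster of their own and 31 passed the brightness threshold; between the days 11 of the 31 rose, 9 fell and 11 did not pass, where 26.3% of all genes tested were higher and 22.6% lower. SLC12A2, the sodium, potassium and chloride importer that raises chloride in immature neurons, rose by 2.15 ± 0.14. ATP1B1, a sodium pump subunit, rose by 0.93 ± 0.08. The next genes were picked after their values were seen. ANK3, which gathers sodium channels at the axon initial segment, rose by 0.71 ± 0.09. FGF13, which binds sodium channel tails, rose by 0.46 ± 0.05. REST, a repressor of neuronal genes that include sodium channels, changed by -0.65 ± 0.06, and the stretch-activated channel gene PIEZO1 by -0.54 ± 0.06. The pacemaker channel genes HCN2 (-0.27) and HCN4 (-0.28) fell as well, while HCN3 of the same family (0.05) did not pass. Limma adjusted p for the 8 genes other than HCN3 lay between 1.06e-05 and 0.0450.

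Markers of cell types are given beside the same shares of all genes tested, 26.3% higher and 22.6% lower for day. Of 11 pluripotency genes 10 fell and 1 rose between the days, and all 11 were above the brightness threshold. Of 9 neuron genes that passed the threshold 6 rose and 2 fell. Over all 13 neuron genes with a cluster the values were also summed, a sum in which the brightest clusters weigh most. The log2 of this summed level was 11.8 on the undifferentiated array, 11.6 to 11.8 at day 7 and 12.3 to 12.5 at day 21. Of 7 neural progenitor genes 3 rose. Of 5 heart and skeletal muscle genes that passed the threshold 3 fell. Over all 9 with a cluster the summed level was 11.1 to 11.3 at day 7 and 10.8 to 10.9 at day 21. Of the 4 endothelial genes with a cluster 4 stayed below the threshold, as did 5 of 6 glial and 3 of 4 smooth muscle genes. Relative to the undifferentiated array 8 of 11 pluripotency genes were lower, 4 neuron genes were higher and 2 lower, and 3 neural progenitor genes were higher, beside 11.0% higher and 17.2% lower over all genes tested. With ethanol 1 of the 9 neuron genes tested was called higher, NCAM1 (0.47 ± 0.05, limma adjusted p = 0.0227), and the median of the 9 was 0.003. Of the 31 partner genes tested 1 was called higher, PIEZO2 (0.60 ± 0.095, limma adjusted p = 0.0413). Over all genes tested 0.563% were called higher with ethanol. The part of these marker changes in the channel values was not tested.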

How the data were processed

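The authors deposited log2 expression values of whole-transcript arrays, summarised by RMA. The submitters' processing notes name Affymetrix Expression Console 1.3.1. That the logarithm has base 2 was inferred from the range of values, 2.49 to 14.3. RMA aims at a common distribution over arrays and shrinks differences between dim probes. The medians of the deposited values still differed, from 7.667 on the undifferentiated array to 7.765 on the ethanol-only array of day 7. For the annotation's genome build, nothing was given in the labels used here. Of 33297 transcript clusters 19460 had 1 gene symbol in the platform annotation, and the brightest cluster stood for a gene. One additive model (terms for ethanol, FA, day and the undifferentiated array) was fitted per gene over 9 arrays with limma 3.58.1 in R 4.3.3, with 4 residual and 3.94 prior degrees of freedom, and p-values were adjusted by Benjamini-Hochberg over 12254 genes at a threshold of 0.05. Interactions were added one at a time. Alternatives changed the brightness filter, the choice of cluster, the scaling and the variance prior, or left out an array. The undifferentiated array was assumed to vary like the others, and array number limits the precision. In data simulated for 12254 genes, with 50 changed at each size, 80% of day differences of 0.5 and 18% of 0.25 were recovered. For ethanol 66% and 26% were recovered. The channel genes, lists and comparisons were chosen with earlier results of these data known. Named genes were the largest called differences with 1 sign in all pairs, up to 8 in each direction for day and 6 for differentiation (for ethanol and FA, the 3 largest where none passed), each family's brightest cluster, genes next to the threshold, and other members named to account for the counts.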

Additional observations from a re-analysis of the deposited data

How the results depend on the processing

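No analysis paired by replicate was possible because each condition had 1 array, with no replicate number in the labels to use as a block. The matched pairs in the text are arrays that differ only in day, only in ethanol or only in FA. Counts of channel genes called for day stayed between 19 and 22 under the filter, cluster, scaling and variance alternatives (19 with a filter on the mean over all arrays, which left KCNIP1 and KCNIP4 untested), and for differentiation between 6 and 8. Leaving out single arrays gave 14 to 34 for day, 5 to 14 for differentiation, 0 to 10 for the added day 7 comparison with undifferentiated cells and 10 to 19 for the added day 21 comparison. It gave 0 to 2 for ethanol by day and 0 for ethanol, FA and the other interactions. With no filter on dim genes the added day 7 comparison called 2, SCN8A and KCNK1. Of the differences picked by the rule for named genes and those called against undifferentiated cells, none changed sign where they were recomputed; other differences given in the text were not recomputed one by one. The 2 clusters of KCNG1 differed in sign for day (-0.02 and 0.09). In simulated data with 50 genes changed at each size, 18% of day differences of 0.25 were recovered. In the arrays themselves 48.9% of all genes tested were called for day, which alters the adjustment. The simulated share therefore does not carry over to the day calls, and a missing call does not show that a gene was unchanged.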

Other observations

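Among the 76 channel genes at or below the brightness threshold, a fit of all 18417 genes with no filter called 5 higher and 7 lower at day 21. The higher genes were KCNMA1 (0.55 ± 0.08), the pore that KCNMB3 and KCNMB4 accompany, KCNE2 (0.43 ± 0.08), the L-type calcium channel gene CACNA1D (0.34 ± 0.08), KCNIP2 (0.27 ± 0.07) and SCN11A (0.18 ± 0.06). KCND2 (-0.73), CACNG5 (-0.55), KCNJ5-AS1 (-0.43), the R-type calcium channel gene CACNA1E (-0.36), CACNA1F (-0.24), KCNA3 (-0.20) and KCNS1 (-0.20) were lower. The highest value of KCNMA1 was 7.32 and that of KCNE2 6.74. Limma adjusted p for the 12 genes lay between 8.35e-05 and 0.0458. In that fit 25.8% of the 124 matched genes and 36.3% of all genes were called for day.

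Some deposited values were equal between arrays to the last decimal. Of the 48 channel genes 16 had the same value on at least 2 arrays, 33.3% beside 22.5% of all genes tested, and KCNAB2 was at 8.93 on 4 arrays.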
